A study of Mus musculus with 9 samples.

Results

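The subunits of the respiratory chain and of the ATP synthase were described in RNA from mouse colonic tissue. Members were all entries of the deposited gene table whose names match the mouse subunit families: Nduf names with a, b, c, s or v and a digit (complex I), Sdha to Sdhd (complex II), Uqcr (complex III), Cox4 to Cox8 (complex IV), Atp5 (complex V), and the protein genes of the mitochondrial genome (mt-Nd, mt-Cytb, mt-Co and mt-Atp). Names ending in -ps, which mark pseudogenes, were left out and took away 13 entries. The rule found 102 members among the 55401 entries of the table, 89 encoded in the nucleus and 13 in the mitochondrial genome. Ndufa4 and Ndufa4l2 carry complex I names but are counted here with complex IV, to which the Ndufa4 protein belongs. The rule uses names alone, but it was set with earlier results of these data known.

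The 9 libraries, all from wild-type mice, came in 3 groups of 3. A chow group and a high-fat diet group both received AOM/DSS, and the third group is labelled berberine, an alkaloid from plants whose effect on tumours the series' title names as the subject. AOM/DSS is not spelled out in the labels; the letters commonly mean azoxymethane and dextran sulfate sodium, which are given together to mice to induce colon tumours on a background of colitis. The labels do not give the diet of the berberine group, whether it received AOM/DSS, or the strain, age or times of any group. They do not say either whether each library came from a separate animal, so p-values measure the spread between these libraries. The libraries held 51961764 to 69007117 estimated counts.

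The respiratory chain sits in the inner mitochondrial membrane. Complexes I and II pass electrons from NADH and succinate to coenzyme Q, complex III passes them on to cytochrome c, complex IV hands them to oxygen, and complex V uses the resulting proton gradient to make ATP. Most subunits are encoded in the nucleus and imported, but the core membrane subunits of complexes I, III, IV and V are encoded in mitochondrial DNA, and complex II is wholly nuclear. Absorptive colonocytes are known for burning butyrate from the gut lumen in their mitochondria, while crypt stem cells rely more on glycolysis.

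Levels are given as CPM, counts relative to the library's total after scaling of the libraries to each other, for comparisons of a gene between libraries, and as FPKM, which also divides by gene length, for comparisons between genes. The test with edgeR took in the 14506 genes whose FPKM averaged 1 or more, and 98 members were among them: 85 nuclear genes (37 of complex I, 4 of complex II, 8 of complex III, 19 of complex IV and 17 of complex V) and all 13 mitochondrial genes. The 4 members left out had a count of 0 in every library. They are Cox8c, Cox7b2, Ndufa11b and an additional entry of the name Atp5o that overlaps the expressed one. Rose, fell and called are used for an adjusted p under 0.05 over all tested genes.

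The members were abundant transcripts. The median tested gene had a mean of 6.09 FPKM, the median nuclear member 75.8 FPKM and the median mitochondrial member 2865 FPKM. Mitochondrial genes ran from 1085 FPKM (mt-Nd3) to 14866 FPKM (mt-Co1, the catalytic subunit of cytochrome c oxidase). Among the nuclear sets the median level was 50.7 FPKM for complex I, 74.3 for complex II, 141 for complex III, 97.6 for complex IV and 107 for complex V, and single nuclear genes ran from 1.12 FPKM (Ndufa4l2) to 546 FPKM (Cox6a1).

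Some values over all genes bear on every result below. Beside the members, markers of absorptive colonocytes were lower in the high-fat diet libraries in 9 of 10 genes, with a summed level of 849.5 to 1400 CPM against 5717 to 10930 in chow and 4928 to 7701 in berberine. Goblet cell markers were lower in 6 of 8 genes (962.2 to 6552 CPM against 10280 to 31280 and 14400 to 26330). All 4 tested stem cell markers were higher (640.8 to 766.5 CPM against 68.07 to 78.57 and 63.65 to 66.94), and 4 of 7 markers of dividing cells were higher (708.2 to 756.6 CPM against 344.9 to 640.8 and 378.3 to 526). General epithelial markers summed to 7588 to 9988 CPM in high-fat diet libraries, 9704 to 11090 in chow and 9203 to 11000 in berberine. Of these 5 markers 1 was called higher in high-fat diet against chow and 1 lower in berberine against high-fat diet. Single markers went opposite ways. Krt18 averaged 432 CPM in chow, 768 in high-fat diet and 287 in berberine, and Krt8 averaged 4631, 3297 and 4132. No marker of these 5 lists was at 0 throughout a group. Some markers of immune cells, muscle and fat also moved between the same groups. Over all tested genes 16.6% were called lower and 15.2% higher in high-fat diet against chow. For berberine against high-fat diet the shares were 14.9% and 15.8%. Of 4 macrophage markers 0 were called in any comparison. Of 3 plasma cell markers 1 was higher in high-fat diet against chow, and 1 was higher and 1 lower in berberine against high-fat diet. All 5 tested lymphocyte markers were lower in high-fat diet against chow and higher in berberine against high-fat diet (73.73 to 115.2 CPM in high-fat diet, 178.1 to 270.4 in chow and 251.9 to 442.4 in berberine). In high-fat diet against chow 4 of 5 mast cell markers were higher and 1 lower, with 241 to 4317 CPM against 60.31 to 134 in chow and 64.56 to 82.17 in berberine, where 4 were lower again and 1 higher. All 3 tested neutrophil markers were higher in high-fat diet (5.119 to 36.12 CPM against 4.13 to 5.178), 6 of 8 striated muscle and 4 of 8 smooth muscle markers were lower, and 1 of 7 adipocyte markers was lower. Against high-fat diet, berberine had 5 of 7 adipocyte markers higher (282.6 to 1047 CPM against 22.1 to 48.24) and 2 of 3 neutrophil markers lower. Tpsab1 of mast cells was at 0 throughout chow, Ucp1 of adipocytes and Myh4 of striated muscle throughout high-fat diet, and Myh1 of striated muscle throughout berberine. The part of these shifts in the results for the members was not tested, and in bulk tissue fewer cells of a type and less RNA per cell cannot be told apart. Chow replicate 3 stood apart by striated muscle RNA, with 10 markers summing to 1617 CPM against 8.829 to 58.49 CPM in the other libraries, so counts are also given without it.

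The comparison of high-fat diet with chow sets side by side 2 groups that both received AOM/DSS and differ by diet in their labels. Nuclear subunits of the respiratory chain were lower in the high-fat diet libraries: 30 of 85 fell and 0 rose, with a median log2 fold change of -0.43 over the 85 genes against 0.00 over all tested genes. Over all 14506 genes, 16.6% were called lower and 15.2% higher, so the 35.3% of nuclear members that fell stood above that share. All falls except that of Cox7a1 were smaller than 2-fold. Members fell in every complex, 12 of 37 in complex I, 3 of 4 in complex II, 4 of 8 in complex III, 6 of 19 in complex IV and 5 of 17 in complex V. None of the 13 mitochondrial genes was called.

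For 50 of the 85 nuclear members (58.8%) the 3 high-fat diet libraries all lay below the 3 chow libraries, against 22.6% of all tested genes. For 1 member, Ndufa4, they all lay above, beside 3359 of all 14506 genes. At an unadjusted p under 0.05, 44 nuclear members were lower and 1 was higher, beside 6263 of all 14506 genes in either direction. DESeq2 called 36 lower and 1 higher, beside 2959 lower and 2626 higher over all genes. With limma on log2(FPKM + 1) 18 were lower and 1 higher, beside 1897 and 2956 over all genes. With scaling by library totals alone, 16 nuclear members were called lower and 1 higher, beside 1890 lower and 2807 higher over all genes. That scaling moved the median over all genes to 0.13 and the share of higher genes among all calls from 47.7% to 59.8%. For limma on log2(FPKM + 1) that share was 60.9%. Without chow replicate 3, which held the striated muscle RNA, 19 nuclear members fell, beside 2158 of all 14506 genes.

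**Figure D1:**
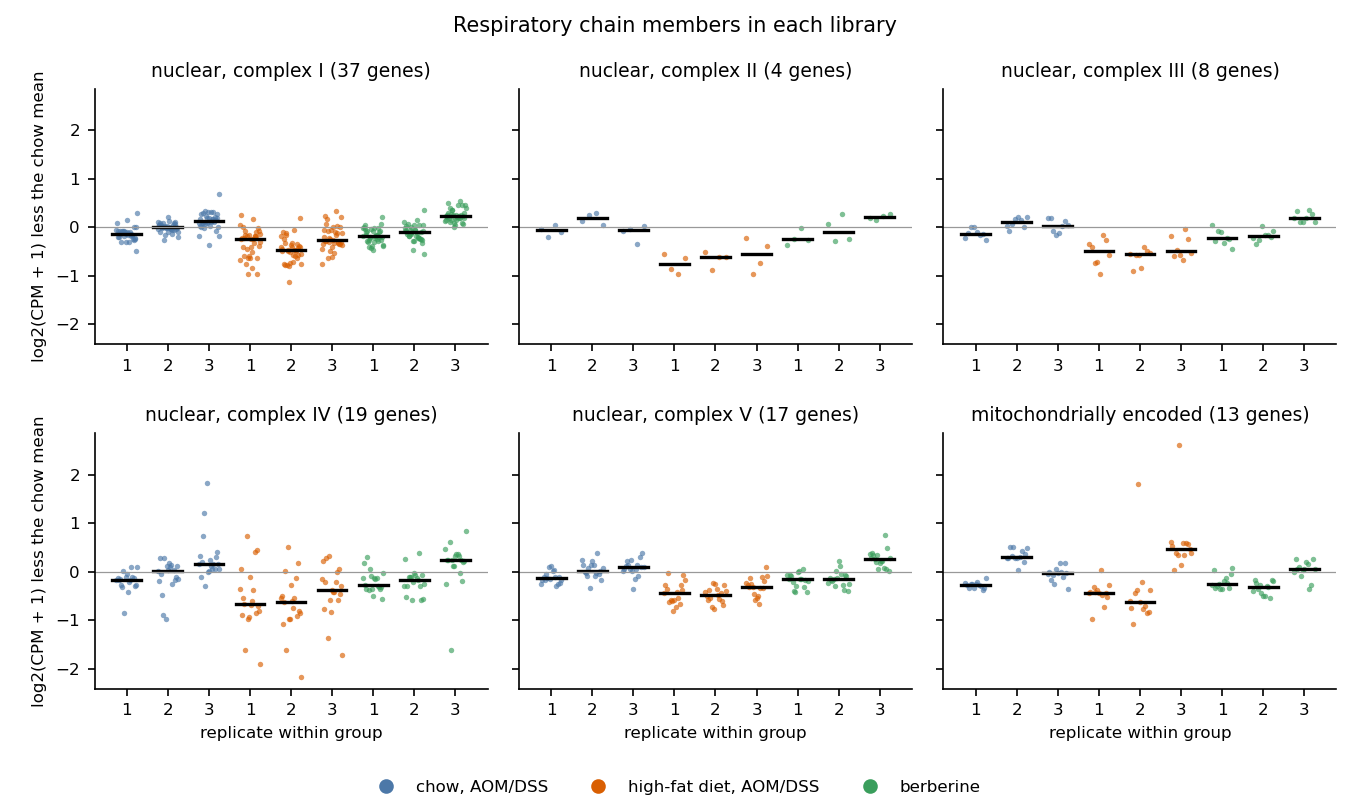
Each point is a tested member in a library, as log2(CPM + 1) less the mean of that gene over the 3 chow libraries; black lines mark the median of the set. All 5 nuclear sets have medians below the chow mean in the 3 high-fat diet libraries (-0.24 to -0.75), whereas the mitochondrial set lies at -0.43 and -0.62 in high-fat diet replicates 1 and 2 and at 0.47 in replicate 3.

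Complex I, which oxidises NADH, was represented by 7 nuclear core subunits that carry the flavin and iron-sulfur centres and 30 accessory subunits that surround them. Of the core subunits 2 of 7 fell and of the accessory subunits 10 of 30. Ndufa9, an accessory subunit (chromosome 6, 126821721 to 126849125, GRCm38), measured 158, 160 and 173 CPM in chow, 102, 122 and 119 in high-fat diet, and 162, 176 and 179 in berberine. The high-fat diet libraries lay below all the others, and the fall against chow was -0.51 ± 0.11 (log2 ± SE, edgeR adjusted p = 0.00814). Ndufb9, another accessory subunit (chromosome 15, 58933756 to 58939488), measured 194, 212 and 218 CPM in chow, 123, 120 and 135 in high-fat diet, and 172, 188 and 251 in berberine. Its groups did not overlap between high-fat diet and chow, with a fall of -0.72 ± 0.15 (edgeR adjusted p = 0.00746). Ndufv1, the core subunit that binds the flavin, fell by 0.47 on the log2 scale, from 138 ± 6.69 CPM to 99.6 ± 9.86 (SD, n = 3 each).

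Not all of complex I was lower by much. Ndufs8, a core iron-sulfur subunit, had a log2 difference of 0.11 ± 0.14 between high-fat diet and chow, and Ndufc2, a membrane-arm accessory subunit, had the highest value of the set at 0.16 ± 0.17; neither was called. The lowest value, -0.86 ± 0.46, belonged to Ndufs6b, a gene at 0.515 to 1.94 CPM, and was not called. Beside Ndufa12 stands the processed copy Ndufa12-ps, which held 63.1% of the summed CPM of the pair, so the split between these 2 entries is uncertain.

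Complex II, succinate dehydrogenase, is also an enzyme of the tricarboxylic acid cycle, and it had the largest share of members called (3 of 4). Sdhb, the iron-sulfur subunit (chromosome 4, 140961203 to 140979193), measured 180, 247 and 202 CPM in chow, 114, 113 and 107 in high-fat diet, and 177, 170 and 233 in berberine. All 3 high-fat diet libraries were low and close together, and the fall was -0.92 ± 0.16 (edgeR adjusted p = 0.0037). Sdha, the flavoprotein, measured 438, 515 and 334 CPM in chow, 216, 274 and 252 in high-fat diet, and 417, 513 and 499 in berberine. The fall of Sdha was -0.79 ± 0.18 without overlap between the groups. The membrane anchors were lower by less: Sdhc fell by 0.54 on the log2 scale, and Sdhd, at -0.43 ± 0.17, was not called (edgeR adjusted p = 0.0816) although its groups did not overlap. The call of Sdhc was lost in 9 of 20 alternative settings, so the share of 3 of 4 depended on settings. In berberine against high-fat diet its call was lost in 14 of 20.

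In complex III, the cytochrome bc1 complex, 4 of 8 nuclear subunits fell. Uqcrc2, a core protein of the matrix side, measured 325, 364 and 290 CPM in chow, 198, 218 and 219 in high-fat diet, and 302, 330 and 353 in berberine, a fall of -0.62 ± 0.12 (edgeR adjusted p = 0.00602). Uqcrfs1, the Rieske iron-sulfur protein, measured 258, 321 and 256 CPM in chow, 141, 153 and 174 in high-fat diet, and 222, 249 and 315 in berberine. The high-fat diet libraries again lay below all the others, and the fall was -0.83 ± 0.16. The other core protein, Uqcrc1, fell by 0.59, and Uqcrh, the hinge protein, by 0.56 on the log2 scale. Uqcrq, a small subunit, was at -0.19 ± 0.18. Cyc1, cytochrome c1, whose name falls outside the rule, fell by 0.67 on the log2 scale.

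In complex IV, cytochrome c oxidase, 6 of 19 nuclear subunits fell and the spread among members was widest. Cox7a1, the isoform of subunit VIIa known from heart and skeletal muscle (chromosome 7, 30184144 to 30186078), measured 39.6, 33.5 and 38.7 CPM in chow, 9.16, 7.49 and 10.6 in high-fat diet, and 36.7, 30.9 and 67.0 in berberine. It fell 4.11-fold, log2 -2.04 ± 0.29 (edgeR adjusted p = 0.00149). Cox7b, an X-linked subunit (chromosome X, 106015700 to 106022450), measured 303, 354 and 326 CPM in chow, 170, 165 and 185 in high-fat diet, and 256, 284 and 353 in berberine, a fall of -0.92 ± 0.14. Its high-fat diet libraries lay below every other library. Cox6a1, the widely expressed isoform of subunit VIa, fell by 0.78 on the log2 scale, from 521 ± 30.9 CPM to 304 ± 36.6 (SD, n = 3 each). Cox6c fell by 0.93 on the log2 scale.

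Smooth muscle markers moved with Cox7a1 between chow and high-fat diet: 4 of 8 were called lower, and their summed level was 9494 to 13180 CPM in chow, 1560, 2399 and 7388 CPM in high-fat diet replicates 1, 2 and 3, and 4670 to 5519 in berberine. High-fat diet replicate 3 had the most smooth muscle RNA of its group and a Cox7a1 level of 10.6 CPM, beside 9.16 and 7.49 in the others. Berberine libraries had less smooth muscle RNA than chow and Cox7a1 levels of 30.9 to 67.0 CPM that overlapped those of chow. Whether smooth muscle had a part in the fall was not tested.

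Ndufa4 went the other way. It measured 131, 157 and 105 CPM in chow, 216, 184 and 161 in high-fat diet, and 134, 120 and 153 in berberine, so that the high-fat diet libraries lay above all the others. The difference between high-fat diet and chow was 0.52 ± 0.18, just short of the threshold (edgeR adjusted p = 0.0549). Over the alternatives its adjusted p ran from 0.0183 with scaling by library totals alone to 0.162 without high-fat diet replicate 1, and DESeq2 gave 0.038.

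**Figure D2:**
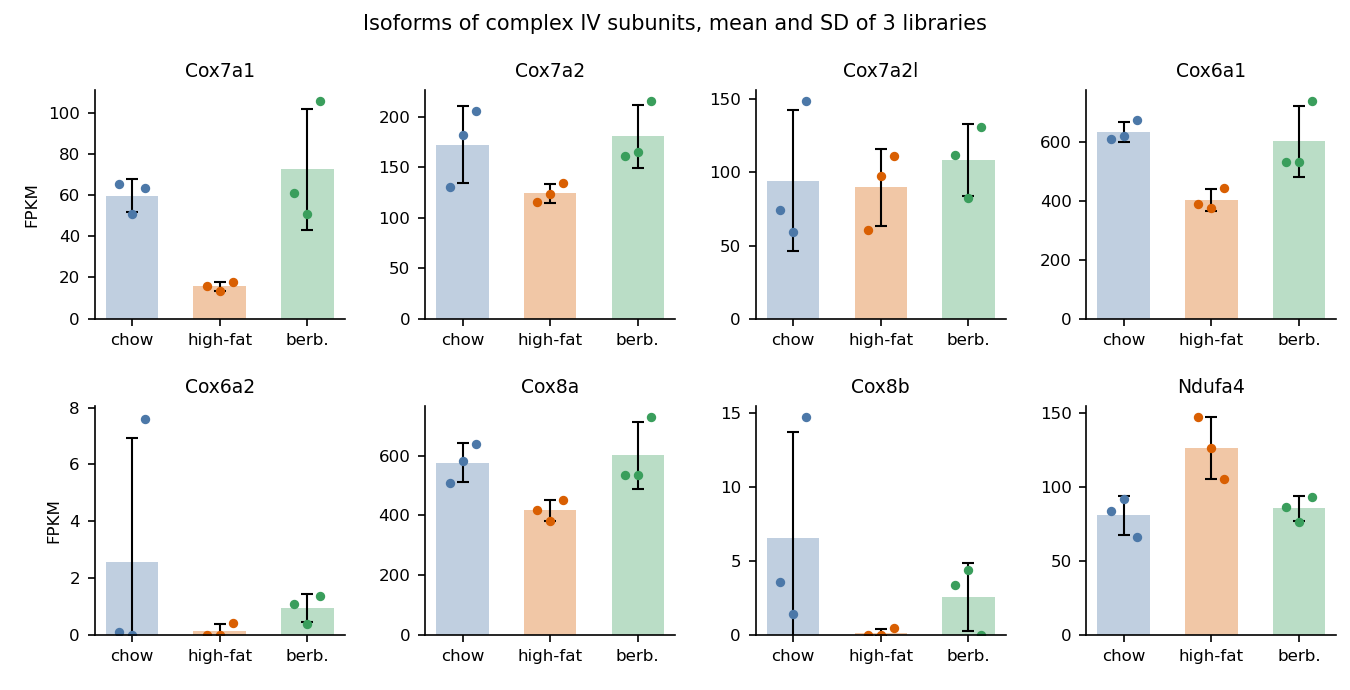
FPKM of 8 complex IV members; bars are means of 3 libraries, error bars SD, and points single libraries, with the y axis starting at 0 in every panel. Cox7a1 stands at 15.7 ± 2.30 FPKM in high-fat diet against 59.8 ± 7.89 in chow, Ndufa4 is highest in high-fat diet, and Cox6a2 and Cox8b have their highest point in chow replicate 3.

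Of the paired isoforms Cox4i and Cox6b, the widely expressed form was far the more abundant, and the Cox7a forms lay closer together. Cox4i1 had a mean of 304 FPKM over the 9 libraries and Cox4i2, a form known from lung, 1.66 FPKM. Cox6b1 had 330 FPKM and Cox6b2, known from testis, 2.98 FPKM. Cox7a2 had 159 FPKM, Cox7a2l 97.4 FPKM and Cox7a1 49.3 FPKM. Neither Cox4i1 (-0.25 ± 0.20) nor Cox4i2 (-0.10 ± 0.44) was called between high-fat diet and chow, and Cox6b2 was at 0.27 ± 0.28. Cox7a2 was at -0.60 ± 0.21 and Cox7a2l at -0.18 ± 0.36, and neither was called. The remaining muscle isoforms had few counts. Cox6a2 measured 0.0817, 0 and 5.92 CPM in chow and Cox8b 1.45, 0.641 and 6.08 CPM. Both were highest in chow replicate 3, where the striated muscle markers summed to 1617 CPM. In high-fat diet Cox6a2 was at 0, 0 and 0.306 CPM and Cox8b at 0, 0 and 0.177 CPM. In berberine, as log2(CPM + 1) less the chow mean, Cox6a2 was at -0.09, -0.58 and 0.12, above chow replicates 1 and 2 (-0.85 and -0.97). On that scale Cox8b was at -0.37, -0.12 and -1.61, beside -0.32 and -0.90 in chow replicates 1 and 2. Neither was called.

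In complex V, the ATP synthase, 5 of 17 nuclear subunits fell: 2 of 5 in the F1 head and central stalk, 0 of 3 genes of the c ring, 2 of 4 in the peripheral stalk and 1 of 5 among the small membrane subunits. Of the c ring genes 2 had an unadjusted p under 0.05, DESeq2 called Atp5g3 and limma called 0. Atp5o, the subunit that joins the peripheral stalk to the head (chromosome 16, 91925214 to 91931687), measured 288, 350 and 324 CPM in chow, 182, 187 and 213 in high-fat diet, and 260, 291 and 331 in berberine, a fall of -0.72 ± 0.13 (edgeR adjusted p = 0.00469) without overlap. Atp5c1, the rotating gamma subunit, fell by 0.53 and Atp5h, of the peripheral stalk, by 0.49 on the log2 scale. Atp5a1, the alpha subunit and among the most abundant nuclear members with 1249 ± 122 CPM in chow, fell to 871 ± 110 CPM (SD, n = 3 each; log2 -0.52 ± 0.15), while its partner Atp5b, the catalytic beta subunit, was at -0.47 ± 0.19 and was not called. Of the 3 genes known to encode the same mature c subunit, Atp5g3 had 207 FPKM over all libraries and a log2 difference of -0.46 ± 0.17, Atp5g2 107 FPKM and -0.11 ± 0.20, and Atp5g1 24.0 FPKM and -0.42 ± 0.16.

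**Figure D3:**
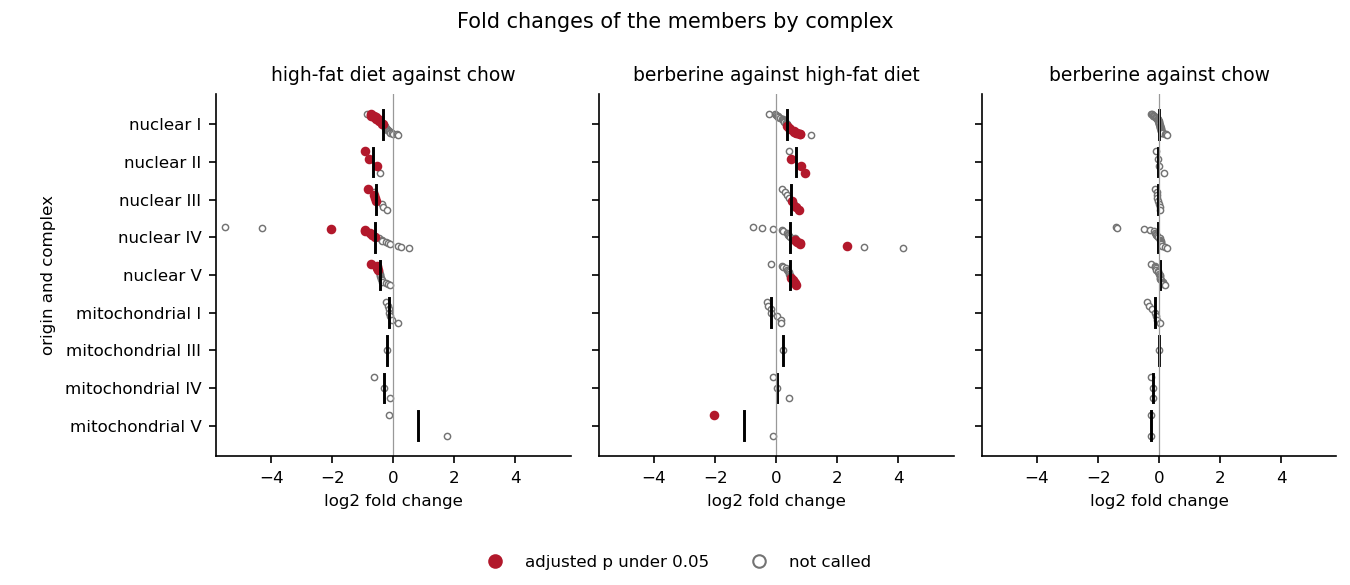
Each point is a tested member, placed by its log2 fold change from edgeR; filled red points passed an adjusted p of 0.05 and black bars mark set medians. Nuclear sets lie left of 0 against chow with 30 called, right of 0 for berberine against high-fat diet with 26 called, and around 0 for berberine against chow with none called; the outlying complex IV points are Cox6a2 and Cox8b, which have few counts.

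Promoter sequence was compared because members of all 5 complexes moved together. RefSeq windows on GRCm38.p6, from 250 bases before to 50 bases after the transcript start, were found for 67 of the 85 nuclear members and for 10085 tested genes, and 4 short motifs were searched on both strands. The NRF1 palindrome GCGCATGCGC was in 5 of 67 member windows (7.46%) against 1.97% of all 10085 windows. CCGGAAG, a core that ETS factors such as GABP bind, was in 23.9% against 18.2%, CAAGGTCA, bound by estrogen-related receptors (ERR), in 5.97% against 0.942%, and AAGATGGC, bound by YY1, in 13.4% against 4.63%. Between the 23 windows of members that fell and the 44 of members not called, the NRF1 palindrome was in 2 and 3, the ETS core in 6 and 10, the ERR motif in 0 and 4, and the YY1 motif in 2 and 7. No motif overlapped another by its letters in the windows printed here. A match describes the letters only.

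Shown are the 250 bases before the start of the member that fell most (Cox7a1), of a fallen member with the NRF1 palindrome and an ETS core (Cox6a1), of a fallen member with an ETS core (Uqcrh), and of a member that was not called and has the ERR motif (Atp5g3). They are written 5′ to 3′ on the gene's strand, with the motifs in capitals. Cox7a1 lies on the + strand at chr7:30183921-30184170, Cox6a1 on the - strand at chr5:115348959-115349208, Uqcrh on the - strand at chr4:116075071-116075320 and Atp5g3 on the - strand at chr2:73911327-73911576.
Cox7a1: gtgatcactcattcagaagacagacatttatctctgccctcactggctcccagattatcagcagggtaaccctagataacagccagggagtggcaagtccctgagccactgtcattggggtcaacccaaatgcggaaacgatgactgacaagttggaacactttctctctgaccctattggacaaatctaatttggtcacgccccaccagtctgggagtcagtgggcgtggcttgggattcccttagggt
Cox6a1: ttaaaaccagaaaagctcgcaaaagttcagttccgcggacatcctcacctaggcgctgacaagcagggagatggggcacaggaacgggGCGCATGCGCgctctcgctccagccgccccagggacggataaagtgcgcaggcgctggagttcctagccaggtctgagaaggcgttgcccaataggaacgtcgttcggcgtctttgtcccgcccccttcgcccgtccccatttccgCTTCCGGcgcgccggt
Uqcrh: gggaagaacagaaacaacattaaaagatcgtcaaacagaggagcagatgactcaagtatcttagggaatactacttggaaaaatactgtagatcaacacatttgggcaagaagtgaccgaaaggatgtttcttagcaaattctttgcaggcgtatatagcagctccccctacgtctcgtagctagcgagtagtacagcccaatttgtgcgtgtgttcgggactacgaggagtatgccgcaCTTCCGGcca
Atp5g3: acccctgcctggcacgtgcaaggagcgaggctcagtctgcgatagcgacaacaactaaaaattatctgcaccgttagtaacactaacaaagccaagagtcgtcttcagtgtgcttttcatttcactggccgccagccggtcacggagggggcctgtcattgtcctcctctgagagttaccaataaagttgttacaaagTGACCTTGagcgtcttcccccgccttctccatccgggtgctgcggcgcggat
In Cox6a1 the NRF1 palindrome began 162 bases and the ETS core 16 bases before the start, in Uqcrh the ETS core began 10 bases before it, and in Atp5g3 the ERR motif 52 bases before it. The Cox7a1 stretch held none of the 4 motifs.

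Counts of the 13 mitochondrial genes were spread widely within groups. The mitochondrial members took 5.71, 8.46 and 6.59% of all counts in chow replicates 1 to 3, 4.83, 4.62 and 9.25% in high-fat diet, and 5.93, 5.72 and 7.04% in berberine. The high-fat diet group held both the lowest and the highest share. Counts on near-identical copies in the nuclear genome, described below, are left out of these shares. The means of 6.92 ± 1.41, 6.24 ± 2.62 and 6.23 ± 0.708% (SD, n = 3 each) were compared by exact two-sided permutation tests (p = 0.6 for high-fat diet against chow, p = 1 for berberine against high-fat diet, p = 0.7 for berberine against chow; adjusted over the 3 comparisons p = 1), and 3 against 3 libraries cannot give a p under 0.1. The nuclear members took 1.57 to 1.73% of counts in chow, 1.28 to 1.35% in high-fat diet and at least 1.51% in each berberine library.

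Against chow, the mitochondrial genes had a median log2 difference of -0.13 in high-fat diet. Leaving out high-fat diet replicate 3 moved that median to -0.54, beside a nuclear median of -0.47 in the same fit, and leaving out replicate 1 moved it to 0.01, with 0 and 1 of 13 genes called. Whether the nuclear and mitochondrial sets differed in their response was not tested. At an unadjusted p under 0.05 1 of the 13 genes was higher and 0 were lower, DESeq2 called 1 higher and limma called 0.

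Complex by complex, mt-Co1 was lowest in high-fat diet replicates 1 and 2, with 24115, 43045 and 26958 CPM in chow, 15537, 14397 and 30880 in high-fat diet, and 24033, 26003 and 31411 in berberine (log2 -0.63 ± 0.43 against chow). The other genes of complex IV, mt-Co2 and mt-Co3, were at -0.09 ± 0.30 and -0.29 ± 0.28. Those of complex I (mt-Nd1, mt-Nd2, mt-Nd3, mt-Nd4, mt-Nd4l, mt-Nd5 and mt-Nd6) lay between -0.25 and 0.17, and mt-Cytb of complex III was at -0.21 ± 0.38. mt-Atp8 of complex V was at -0.15 ± 0.28. In all of these the high-fat diet libraries overlapped the chow libraries. The gene pairs mt-Atp8 and mt-Atp6, and mt-Nd4l and mt-Nd4, overlap on the same strand, which can split reads between them.

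mt-Atp6, the membrane subunit a of the ATP synthase (mitochondrial genome, 7927 to 8607), stood apart. It measured 842, 1307 and 1112 CPM in chow, 823, 3757 and 6530 in high-fat diet, and 833, 792 and 1091 in berberine. High-fat diet replicate 1 was at the chow level and replicates 2 and 3 were far above it. The difference between high-fat diet and chow was 1.77 ± 0.60 (edgeR adjusted p = 0.0521), and mt-Atp6 fell by 2.03 in berberine against high-fat diet (edgeR adjusted p = 0.0338). That call was lost without high-fat diet replicate 2 (log2 -2.01, edgeR adjusted p = 0.0701) or replicate 3 (log2 -1.35, edgeR adjusted p = 0.102), and without any 1 of the berberine libraries (edgeR adjusted p of 0.072 to 0.106).

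A copy in the nuclear genome makes that value uncertain. Chromosome 1 holds stretches that match 7 of the mitochondrial genes at 98.78 to 100% of the bases compared, between 24611535 and 24616197, and the table counts them as separate genes. Gm10925, identical to mt-Atp6 over 678 bases, was counted at 3803, 6415 and 5048 CPM in chow, 2465, 1749 and 6704 in high-fat diet, and 3859, 4195 and 5096 in berberine, 69.7% of the summed CPM of the pair. Summed, the pair held 4645, 7722 and 6160 CPM in chow, 3288, 5506 and 13233 in high-fat diet, and 4691, 4987 and 6187 in berberine. High-fat diet replicate 3 thus stayed above every chow library, and replicates 1 and 2 did not. The copies of mt-Co2 (Gm28661), mt-Co3 (Gm28437), mt-Nd3 (Gm28438) and mt-Nd4l (Gm10222) held 45.8 to 46.3% of their pair, that of mt-Nd4 (Gm28439) 24.1% and that of mt-Co1 (Gm29216) 12.3%. Reads from identical sequence cannot be assigned to either place, so these 7 values are uncertain, and so are the mitochondrial shares of counts given above. With each copy added to its gene, mt-Atp6 was at 0.25 ± 0.47 in high-fat diet against chow (edgeR adjusted p = 0.724) and at -0.47 ± 0.47 in berberine against high-fat diet (edgeR adjusted p = 0.478), and none of the 13 genes was called. The mitochondrial median moved from -0.13 to -0.18 in high-fat diet against chow. In berberine against high-fat diet it moved from -0.10 to 0.07.

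**Figure D4:**
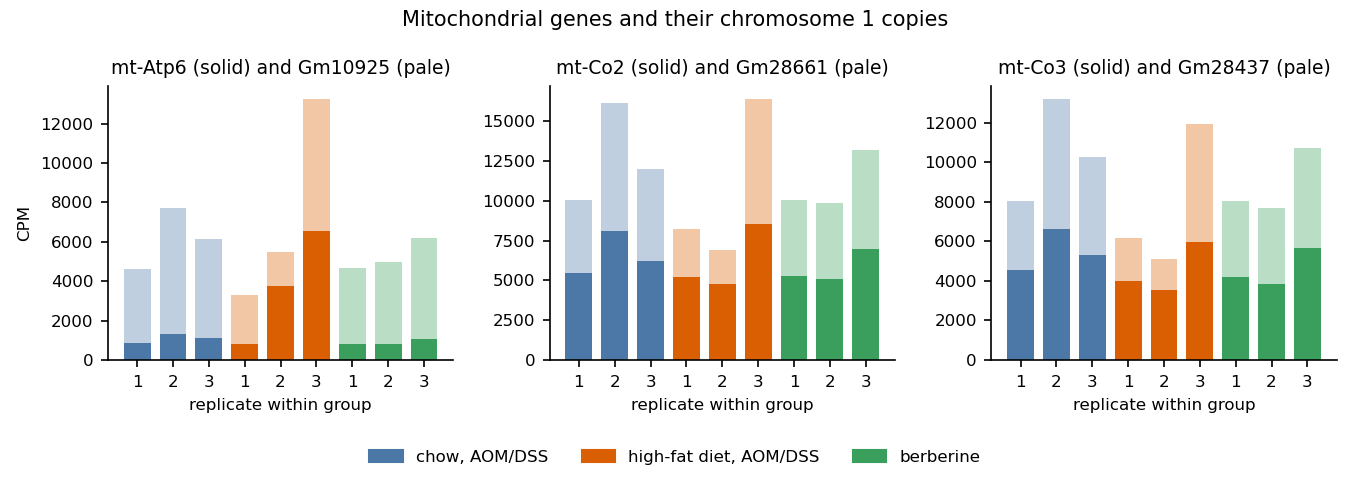
CPM of 3 mitochondrial genes (solid) with their chromosome 1 copies (pale, stacked) in each library. In high-fat diet replicate 2 mt-Atp6 is high at 3757 CPM while Gm10925 is low at 1749 CPM, whereas in the chow and berberine libraries the copy takes the larger part.

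Berberine against high-fat diet uses the same high-fat diet libraries, so its values are not independent of those against chow and are given side by side. Of the 85 nuclear members 26 were higher in berberine and 0 were lower (30.6%), with a median of 0.40 against -0.01 over all genes; 15.8% of all tested genes were called higher and 14.9% lower. For 44 nuclear members (51.8%) the 3 berberine libraries all lay above the 3 high-fat diet libraries, against 24.8% of all tested genes. Called members were 9 of 37 in complex I, 3 of 4 in complex II, 3 of 8 in complex III, 6 of 19 in complex IV and 5 of 17 in complex V. At an unadjusted p under 0.05, 44 were higher and 2 lower, beside 6142 of all 14506 genes in either direction. DESeq2 called 33 higher and 1 lower, beside 2781 and 2693 over all genes. With limma on log2(FPKM + 1) 18 were higher and 2 lower, beside 1862 and 2703 over all genes. With scaling by library totals alone 19 were higher and 1 lower, beside 1864 and 2689 over all genes. The share of higher genes among all calls was then 40.9% in place of 51.4% (limma 40.8%). The count rested in part on berberine replicate 3, which had the highest nuclear share of counts. Without it 10 of 85 nuclear members rose beside 1761 of 14506 tested genes, so the members did not stand above that share. Without high-fat diet replicate 1, 12 of 85 rose beside 1844 of 14506.

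Cox7a1 was 4.95-fold higher in berberine than in high-fat diet (log2 2.31 ± 0.29, edgeR adjusted p = 0.000921). Sdha was 1.92-fold higher (0.94 ± 0.18) and Sdhb 1.74-fold (0.80 ± 0.16). Cox7b, Uqcrfs1, Ndufb9, Uqcrc2, Atp5o and Ndufa9 had log2 differences of 0.78, 0.75, 0.69, 0.63, 0.60 and 0.59. In the F1 head of complex V 3 of 5 genes rose, among them Atp5a1 (0.64 ± 0.15) and Atp5c1 (0.54 ± 0.13). Ndufa4 was at -0.46 ± 0.18 and Cox6b2 at -0.77 ± 0.28, and neither was called. Ndufc2 (-0.23 ± 0.17) and Atp5g2 (-0.18 ± 0.20) had the lowest values of complexes I and V.

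Berberine against chow asks whether the berberine libraries differed from the chow libraries. None of the 98 members was called by edgeR, beside 0.0483% of all tested genes. At an unadjusted p under 0.05 there were 0 members, beside 1579 of all 14506 genes in either direction. DESeq2 and limma also called 0 members. Over all genes DESeq2 called 205 lower and 179 higher, and limma on log2(FPKM + 1) called 1 lower and 8 higher. The nuclear median was -0.01 and the mitochondrial median -0.21. For 76 of 85 nuclear members the 95% interval of the log2 difference lay within 1 in either direction, and for 69 within 0.58, which is 1.5-fold. The interval of Sdhb ran from -0.48 to 0.24, that of Sdha from -0.26 to 0.56, that of Cox7b from -0.46 to 0.18, that of Ndufa9 from -0.17 to 0.32 and that of Cox7a1 from -0.36 to 0.90. Differences inside such intervals are not excluded with 3 libraries a group.

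Genes that build, feed or regulate the chain were read from lists of their own. Beside them, 16.6% of all tested genes were called lower and 15.2% higher in high-fat diet against chow. For berberine against high-fat diet these shares were 14.9% and 15.8%. The tricarboxylic acid cycle, which supplies NADH and succinate, had 8 of 14 genes lower and 0 higher in high-fat diet against chow (0 higher at an unadjusted p under 0.05), with Cs, citrate synthase, at 852, 731 and 725 CPM in chow, 361, 426 and 375 in high-fat diet, and 710, 758 and 860 in berberine. The groups of Cs did not overlap between high-fat diet and either other group (log2 -0.99 ± 0.14 against chow). Suclg1 and Idh3b fell by 0.93 and 0.77 on the log2 scale. Coenzyme Q synthesis had 5 of 13 lower and 0 higher (0 higher unadjusted). Coq8a, a regulator of that pathway, fell from 32.3, 27.1 and 28.6 CPM to 7.94, 9.27 and 11.7 (log2 -1.61 ± 0.19) and measured 23.7, 32.6 and 31.1 CPM in berberine. Carriers and channels of the mitochondrial membranes had 5 of 10 lower, among them Vdac3 (-0.82 ± 0.16) and Slc25a5 (-0.71 ± 0.16), an exchanger of ADP and ATP.

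Assembly factors were counted by complex, beside 16.6% of all tested genes called lower and 15.2% higher. The lists are short, and differences between complexes were not tested. Of 15 factors of complex I 0 were called against chow (2 lower at an unadjusted p under 0.05), with a median of 0.01. Of 20 factors of complex IV 6 fell, among them Surf1 (-0.72 ± 0.17) and Cox11 (-0.58 ± 0.15), which serve the haem and copper centres. Of 4 factors of complex II 1 rose: Sdhaf1, which helps to insert iron-sulfur clusters into Sdhb, was at 0.76 ± 0.19 while Sdhb fell, and was at -1.13 ± 0.19 in berberine against high-fat diet. Of 5 factors of complex III and 3 of complex V 0 were called (1 and 0 at an unadjusted p under 0.05).

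Among 9 tested regulators of respiratory gene transcription 3 fell and 1 rose. Ppargc1a, the coactivator PGC-1alpha, measured 53.1, 40.8 and 41.9 CPM in chow, 14.4, 15.8 and 15.4 in high-fat diet, and 28.1, 43.2 and 34.7 in berberine (log2 -1.57 ± 0.18 against chow, 1.21 ± 0.18 in berberine against high-fat diet). Its high-fat diet libraries lay below all the others. Ppargc1b fell by 2.11 and Esrra, which encodes an estrogen-related receptor, by 0.57 on the log2 scale. Pprc1, a related coactivator, rose, from 23.6, 21.7 and 22.8 CPM to 49.2, 61.9 and 47.5 (log2 1.22 ± 0.20), and measured 45.7, 32.2 and 27.4 CPM in berberine.

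Genes that maintain mitochondrial DNA and RNA were mixed, with 1 of 20 higher and 2 lower against chow. Polg2, a subunit of the mitochondrial DNA polymerase, fell by 1.26 on the log2 scale and Twnk, the helicase, rose by 0.46. The mitochondrial ribosome, which translates the 13 mitochondrial members, had 10 of 78 protein genes higher and 0 lower (1 lower at an unadjusted p under 0.05), with a median of 0.15, beside 15.2% of all tested genes called higher; this list was added after values had been seen. In berberine against high-fat diet 7 of 14 genes of the tricarboxylic acid cycle and 4 of 13 of coenzyme Q synthesis were higher and 0 lower in both (1 and 0 lower at an unadjusted p under 0.05), and 1 of 78 ribosomal genes was higher and 4 were lower. In that comparison 4 of 10 carriers were higher (Slc25a3, Slc25a5, Vdac1 and Vdac3) and 3 lower, with Slc25a4, another exchanger of ADP and ATP, at -1.08 ± 0.23, Ucp2 at -0.55 ± 0.15 and Slc25a1, the citrate carrier, at -0.53 ± 0.15. Of the genes that maintain mitochondrial DNA and RNA 2 of 20 were higher, Polg2 and Mgme1 (0.83 ± 0.18), and 3 lower, Twnk (-0.51 ± 0.10), Top1mt (-0.71 ± 0.19) and Ssbp1 (-0.72 ± 0.22). Of the complex IV assembly factors 4 of 20 and of the regulators 4 of 9 were higher, beside 15.8% of all tested genes. Of the complex II assembly factors 1 of 4 was lower, beside 14.9%. In berberine against chow none of the genes of these lists was called by edgeR; at an unadjusted p under 0.05, 2 genes of the tricarboxylic acid cycle and 2 carriers were lower, and 1 regulator and 1 ribosomal gene were higher.

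**Figure D5:**
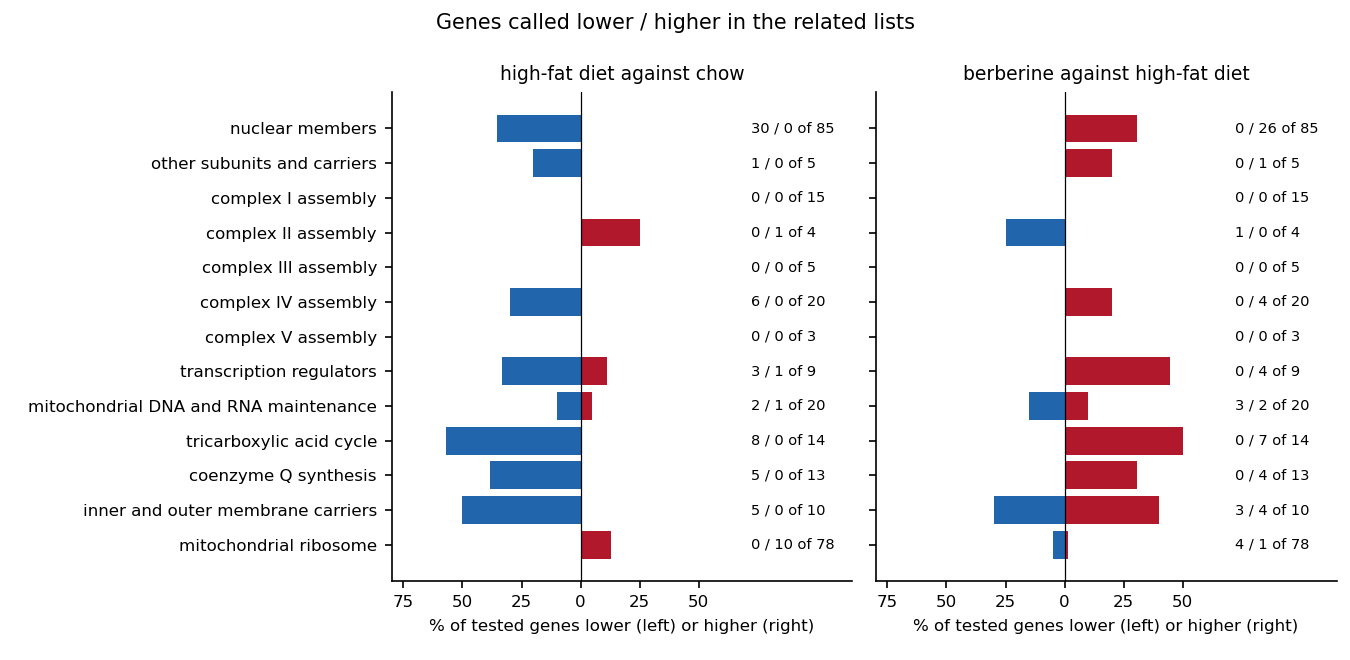
Bars give the share of tested genes of each list that were called lower (blue, left) or higher (red, right) by edgeR, with the counts lower / higher of tested at the right of each row. Nuclear members, the tricarboxylic acid cycle, coenzyme Q synthesis and membrane carriers have calls to the left only against chow, and the mitochondrial ribosome to the right only.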

How the data were processed

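Poly(A) RNA of 9 colonic tissue libraries was sequenced with stranded library chemistry and molecular identifiers, per the labels' protocols. The deposited table gives an estimated count and an FPKM value per gene and library, per the file headers; the authors list FPKM at 0.0001 where the count is 0. The submitters' processing notes name the build GRCm38 and the tools HISAT2 2.0.4, StringTie 1.3.4d, cutadapt 1.9, edgeR, DESeq2 and UMI-tools, without saying how each was used. The deposited expected counts are whole numbers, and low ones pile up at 4 and its multiples, so 1 fragment was worth about 4 counts and count models see less noise than the fragments carry at low counts.

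Estimated counts were tested with edgeR 4.0.16 in R 4.3.3 (TMM scaling, quasi-likelihood fit of all 9 libraries with a coefficient per group) over the 14506 genes that averaged 1 FPKM or more, with Benjamini-Hochberg adjustment over all of them and a threshold of 0.05. CPM uses the TMM-scaled totals. Alternatives were limma 3.58.1, DESeq2 1.42.0, other scalings and filters, a replicate block and leaving out each library. The analysis was tested on simulated data. Replicate numbers carry no stated pairing. The members, the lists and their roles were chosen with earlier results of these data known. Members named are all mitochondrial and Sdh genes, fixed isoform families and, per complex and comparison, the 3 smallest p and both extremes, and of the other lists, those with the 3 smallest p. Cox6c, Ndufa12, Atp5b, Vdac1, Slc25a1, Ucp2, Top1mt and Ssbp1 were named after their values were seen. Promoters are from RefSeq, GRCm38.p6.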

Additional observations from a re-analysis of the deposited data

How the results depend on the processing

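With 3 libraries a group the count of called members depended on settings. Against chow, the 30 calls of high-fat diet became 18 with scaling by library totals alone, 14 with no filter on FPKM (more genes tested), and 19 with limma on log2(FPKM + 1) or log2(FPKM + 0.1), but 38 with DESeq2. Leaving out each library gave 16 to 35 calls, with 18 without chow replicate 2, 19 without chow replicate 3, 16 without high-fat diet replicate 1 and 17 without replicate 2. The 27 calls of berberine against high-fat diet became 10 to 28, with 10 without berberine replicate 3, 13 without high-fat diet replicate 1 and 16 without replicate 2; other settings gave 19 to 35. The cause was not tested. Berberine against chow gave 0 in every setting run. Of the called members 14 of 30 and 9 of 27 kept their call under every left-out library, and 13 and 9 under all 20 alternatives; the 13 are Cox7a1, Cox7b, Cox6a1, Cox6c, Sdha, Sdhb, Ndufa9, Ndufb9, Ndufv3, Uqcrc1, Uqcrc2, Uqcrfs1 and Atp5o. Over 162 single-gene results (54 members in 3 comparisons) and the alternatives, 3058 values kept their side of the threshold, 123 lost a call, 41 gained one and 0 called values reversed. The difference in mitochondrial share of counts between high-fat diet and chow, -0.68 percentage points, ran from -2.19 to 0.13 over left-out libraries. A replicate block gave 36, 33 and 0 calls in the 3 comparisons. Same-numbered libraries had correlations of -0.099 to 0.16, with 2 of 9 over 0.1. In 5 of 9 pairs the same-numbered library was the closest of the other group. Such values cannot settle whether the numbers pair the libraries. Summing near-identical copies was chosen after seeing the data.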
